A study of Mus musculus with 4 samples.

Results

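The genes examined here are the Sox, Tbx and Lhx genes of the mouse autosomes, 36 protein-coding developmental regulators, set against the other 20524 autosomal protein-coding genes of the RefSeq table. They were chosen by symbol, Sox, Tbx or Lhx followed by a digit, leaving out Sox9 and Sox30, with earlier results of these data known. This gave 16 Sox, 12 Tbx and 8 Lhx genes. CTCF, a DNA-binding protein found at chromatin boundaries and at the bases of loops, had been mapped by chromatin immunoprecipitation and sequencing in unsorted testes of F1 (B6xCAST) hybrid mice, with 2 immunoprecipitated samples and 2 input samples. All values come from 1 merged list of 51871 peaks (50267 of them autosomal) in mm10 coordinates, so no spread between animals can be given, the read depth is unknown, and germ cells and somatic cells of the testis cannot be told apart. Each peak has a summit, its highest point, with a fold enrichment over background and a −log10 q, both the authors' own.

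Sox proteins bind DNA through an HMG box related to that of the sex-determining protein SRY, bend it, and set cell identity in neural, neural crest, endodermal and endothelial lineages. T-box proteins share another DNA-binding domain and pattern mesoderm, heart and limbs. LIM-homeodomain proteins of the Lhx group pair a homeodomain with LIM domains that recruit cofactors, and specify neurons, pituitary cells and, in the case of Lhx9, the early gonad. Many such genes sit in wide intergenic regions with distant enhancers, and CTCF sites near genes of this kind are known to border the reach of those enhancers in other tissues.

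Promoter windows of RefSeq (build GRCm38.p6, the coordinates of mm10) were listed for 27 of the 36 genes, 300 bases each, from 250 bases before a transcription start to 50 bases after it. The windows that held a CTCF summit were those of Tbx1, Tbx18 and Sox12, printed here because they show the sequence under a summit at a start. Capitals mark the 11 bases centred on the summit and any match to a CTCF core of 12 positions (CC, any 3 bases, AG, any 2 bases, GGC), searched on both strands. The window of Tbx21, added after the values were seen, held a core match but no summit. The letters are those of the C57BL/6J reference, and the CAST allele was not examined.
Tbx1 (chr16:18590622-18590921, minus strand): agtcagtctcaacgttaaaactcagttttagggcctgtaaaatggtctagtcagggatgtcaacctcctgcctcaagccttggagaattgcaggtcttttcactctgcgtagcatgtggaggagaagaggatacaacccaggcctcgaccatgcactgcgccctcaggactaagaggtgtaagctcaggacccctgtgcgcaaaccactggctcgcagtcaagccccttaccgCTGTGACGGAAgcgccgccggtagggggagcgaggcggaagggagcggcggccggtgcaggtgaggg
Tbx18 (chr9:87731211-87731510, minus strand): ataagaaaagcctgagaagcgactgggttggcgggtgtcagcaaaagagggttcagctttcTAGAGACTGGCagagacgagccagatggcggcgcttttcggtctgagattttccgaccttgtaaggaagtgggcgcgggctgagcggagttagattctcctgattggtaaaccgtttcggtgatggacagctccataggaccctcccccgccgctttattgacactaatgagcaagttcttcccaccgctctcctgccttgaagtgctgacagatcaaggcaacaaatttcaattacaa
Sox12 (chr2:152397997-152398296, minus strand): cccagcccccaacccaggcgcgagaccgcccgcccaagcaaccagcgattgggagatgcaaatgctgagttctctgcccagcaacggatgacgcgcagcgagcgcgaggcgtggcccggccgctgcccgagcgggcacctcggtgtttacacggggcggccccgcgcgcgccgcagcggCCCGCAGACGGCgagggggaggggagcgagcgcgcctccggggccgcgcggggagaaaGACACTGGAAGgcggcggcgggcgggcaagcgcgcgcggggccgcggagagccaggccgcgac
Tbx21 (chr11:97115282-97115581, minus strand): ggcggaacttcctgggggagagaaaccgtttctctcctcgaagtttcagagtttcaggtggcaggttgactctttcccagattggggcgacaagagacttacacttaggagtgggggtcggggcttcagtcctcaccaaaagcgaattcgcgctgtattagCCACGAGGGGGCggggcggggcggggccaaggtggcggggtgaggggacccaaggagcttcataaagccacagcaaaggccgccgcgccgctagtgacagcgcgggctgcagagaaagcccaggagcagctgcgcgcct

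In the Tbx1 window the summit lay at base 239, 12 bp from the start, and in the Tbx18 window at base 67, 184 bp from it. Neither window held the core letters on either strand, which says only that these letters are not there. In the Sox12 window the core match CCCGCAGACGGC spanned bases 180 to 191 and its centre lay 57 bp from the summit at base 243. The Tbx21 match, CCACGAGGGGGC at bases 162 to 173, lay 8059 bp from the nearest summit. Of the 37 listed windows of the 27 genes, 7 held a core match (18.9%), against 8.61% of all 32851 listed windows. The latter belong to 27025 genes and are not limited to autosomal protein-coding genes, and the difference was not tested. Among windows of all genes that held a summit the share was 23.4%, and among those without one 6.40%. The other 5 matches of member windows (Lhx2, Lhx4, Sox2, Tbx6 and Tbx10) were also in windows without a summit.

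CTCF summits were found within 1 kb of an end of 16 of the 36 genes (44.4%, exact Clopper-Pearson 95% interval 27.9 to 61.9). Among the other autosomal protein-coding genes the share was 40.3%, or 43.2% without olfactory and vomeronasal receptor genes, and both values lie inside that interval. By family it was 9 of 16 Sox genes (56.3%, interval 29.9 to 80.2), 5 of 12 Tbx genes (41.7%, interval 15.2 to 72.3) and 2 of 8 Lhx genes (25%, interval 3.19 to 65.1). The intervals of the families overlapped one another and all held the value of the other genes. They cover counting error only and treat genes as independent draws, and the difference between families was not tested. With a window of 2.5 kb the families lay farther apart, at 87.5% of Sox genes (interval 61.7 to 98.4), 58.3% of Tbx genes (interval 27.7 to 84.8) and 25% of Lhx genes (interval 3.19 to 65.1). Other genes stood at 52.5% in that window, below the Sox interval, while the intervals of Sox and Lhx still overlapped. With overlap of the peak by 1 bp other genes, at 44.1%, also lay below the Sox interval (47.6 to 92.7). With a 500 bp window (29.9 to 80.2 against 32.4%), or fold at least 5 (19.8 to 70.1 against 24.4%), the Sox interval held their value. It also did so for peaks with a −log10 q no lower than the median (7.27 to 52.4 against 17.6%). From listed starts the Sox share was the lower, at 33.3% against 38.3%. Summits of fold at least 5 at an end were found for 12 of the 36 genes (33.3%, interval 18.6 to 51.0), against 24.4% of other genes. The 12 were 7 Sox, 4 Tbx and 1 Lhx gene.

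**Figure D1:**
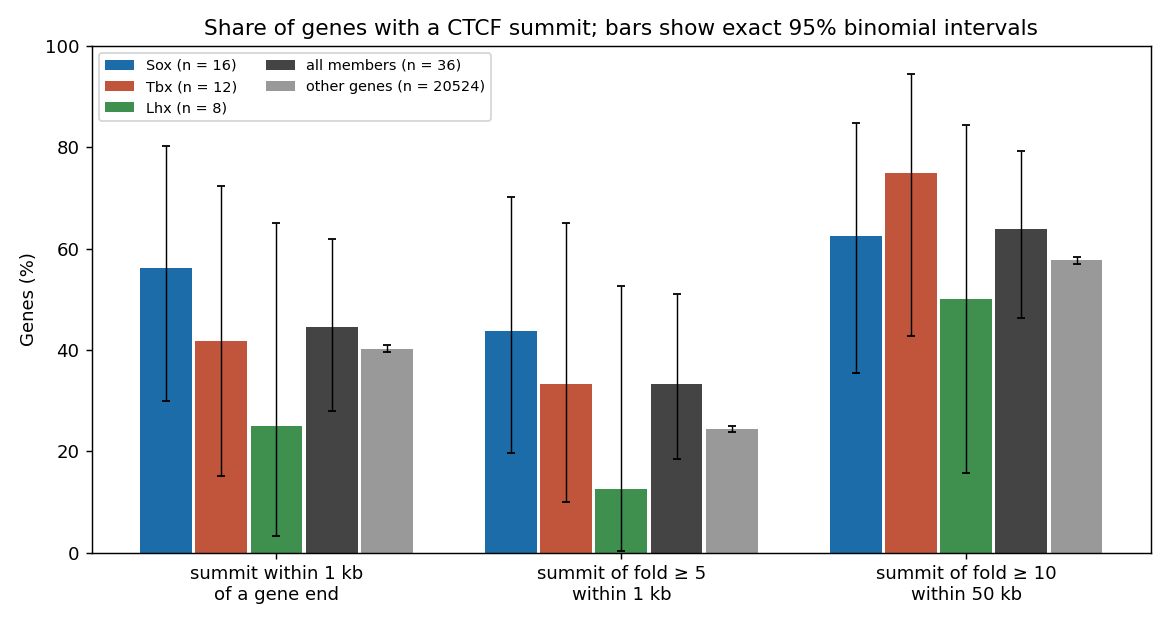
Percentage of genes (vertical axis) with a CTCF summit by 3 definitions (horizontal axis), for 16 Sox, 12 Tbx and 8 Lhx genes, all 36 together and 20524 other autosomal protein-coding genes; error bars are exact 95% binomial intervals. For summits within 1 kb of a gene end the bars step down from Sox (56.3%) through Tbx (41.7%) to Lhx (25%), with overlapping intervals.

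The 16 genes carried 21 gene-end summits, all distinct. Sox12 had 4, Sox15 and Tbx2 had 2 each, and the other 13 genes had 1. Their folds ran from 2.92 to 15.7 with a median of 5.68, close to the 5.56 of the 8256 gene-end summits of other genes and below the 6.82 of all autosomal peaks. The median −log10 q was 19.6, against 19.9 at the ends of other genes. Of the 21 summits, 2 were also within 1 kb of the end of another protein-coding gene, 1 at Sox15 and 1 at Tbx10. Neither this count nor the split by strand that follows was compared with other genes. Strand was listed for 27 genes; by it 10 summits lay at a 5′ end and 6 at a 3′ end, and the remaining 5 belonged to genes without a listed strand (Tbx2, Tbx3, Lhx5 and Sox7).

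**Figure D2:**
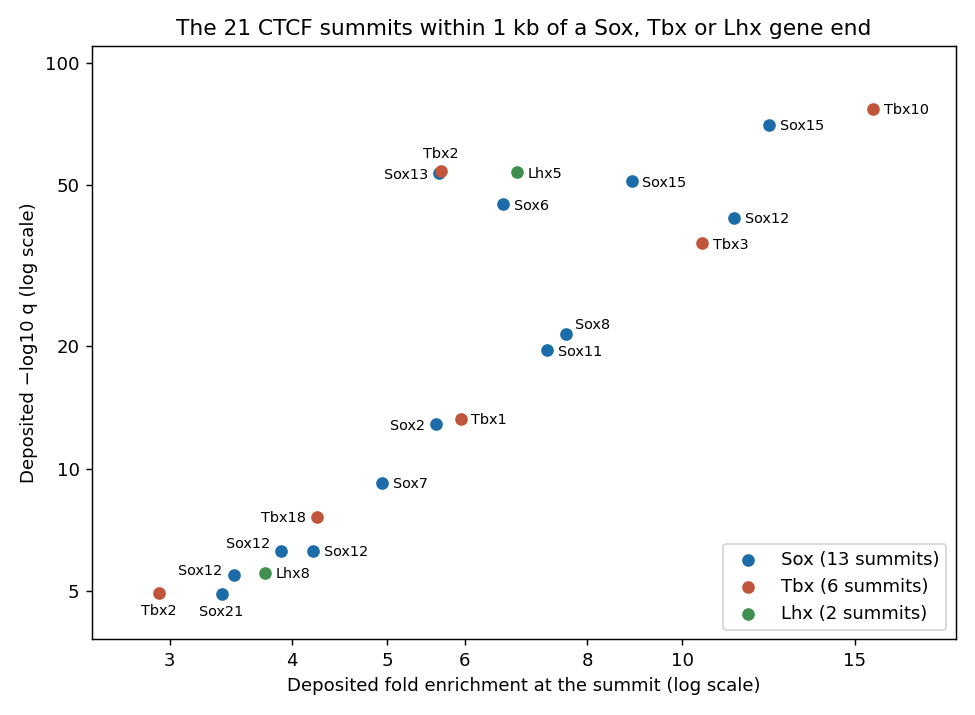
The 21 CTCF summits within 1 kb of an end of a Sox, Tbx or Lhx gene, each a point labelled with its gene, by deposited fold (horizontal, log scale) and deposited −log10 q (vertical, log scale). Tbx10 is highest on both axes (15.7 and 77.1), and Sox13, Tbx2, Sox6 and Lhx5 carry a −log10 q of 44.8 to 54.1 at folds of only 5.65 to 6.78.

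Fold and −log10 q did not order these summits alike. Sox13 (fold 5.65, −log10 q 53.4) and Sox2 (fold 5.60, −log10 q 12.9) had nearly the same fold but far apart −log10 q. The same held for the stronger Tbx2 summit (fold 5.68, −log10 q 54.1) and Tbx1 (fold 5.94, −log10 q 13.3). The peaks of Sox13 and Tbx2 were 1554 and 3863 bp wide and that of Tbx1 367 bp, but the Sox2 peak was also wide, at 2413 bp. What sets these pairs apart was not tested.

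Among the SoxB genes, which maintain neural progenitors (Sox1, Sox2) or act as repressors in the nervous system (Sox14, Sox21), the summit nearest to each gene was not its strongest within 50 kb, though weak summits also lay farther out. Sox2, the pluripotency and neural stem cell factor (chromosome 3, 34649995 to 34652461), had a summit of fold 5.60 inside the gene, 331 bp from its 3′ end. A summit of fold 8.87 and −log10 q 70.8 lay 2.13 kb outside the gene, next to its 5′ end, and the strongest of its 5 summits within 50 kb, with a fold of 10.97, lay 10.6 kb away. At Sox21 (chromosome 14, 118233233 to 118237030) the gene-end summit, with a fold of only 3.39, was 94 bp from the 3′ end, whereas a summit of fold 17.3 and −log10 q 89.3, the highest fold within 50 kb of any of the 36 genes, lay 25.7 kb away. Sox1 had no gene-end summit; its nearest, with a fold of 4.33, lay inside the gene, 1.27 kb from an end, and a summit of fold 11.0 lay 3.75 kb outside. Sox14 was the gene just outside the 1 kb limit, with a weak summit of fold 2.52 at 1021 bp; just inside it was Tbx10, at 731 bp.

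The SoxC genes, which promote the differentiation of neural progenitors, ranged from a CTCF-dense locus to one of the sparsest of the set. At Sox12 (chromosome 2, 152393611 to 152398046) 3 weak summits with folds of 3.49, 3.89 and 4.20 lay within 802 bp of the 5′ end, and 1 of fold 11.3 lay 651 bp beyond the 3′ end. In all, 12 summits lay within 50 kb of Sox12, and the summits that flank the gene were only 5.09 kb apart, the shortest such gap in the set. Sox11 (chromosome 12, 27334268 to 27342718) had a single summit within 50 kb, of fold 7.28, 390 bp outside its 5′ end, and its flanking summits were 283 kb apart. Sox4 had no gene-end summit and 3 within 50 kb, at 1.54 kb inside the gene (fold 5.96) and at 4.27 and 6.02 kb outside it (folds 9.66 and 7.35).

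The SoxD genes, whose proteins lack a transactivation domain of their own and include the cartilage factors Sox5 and Sox6, hold the longest members. Sox5 (chromosome 6, 954 kb) had no gene-end summit, its nearest lying 22.0 kb away with a fold of 10.3, but held 18 summits inside, or 1.89 per 100 kb, against 1.93 per 100 kb over chromosome 6. Their folds ran from 3.47 to 10.9 with a median of 6.47. Sox6 (chromosome 7, 570 kb) held 4, or 0.702 per 100 kb, against 2.39 over its chromosome, at folds of 6.56 to 10.2. The 214 other genes of at least 500 kb had a median of 0.851 summits per 100 kb, from 0 to 7.65. The summit of fold 6.56 in Sox6 lay 366 bp inside the annotated end and 1666 bp from the nearest listed start. At Sox13 a summit of fold 5.65 lay 71 bp beyond the 3′ end and 1 of fold 11.2 lay 3.36 kb inside the gene.

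Sox8 and Sox10, of the SoxE group that also holds Sox9, act in neural crest and, for Sox8, in Sertoli cells. Sox8 (chromosome 17, 25565893 to 25570686) had its gene-end summit, of fold 7.61, 373 bp outside the 5′ end. Sox10 had no summit within 1 kb, but a strong one of fold 13.2 and −log10 q 53.0 lay inside the gene, 1.48 kb from an end. Of the SoxF genes, regulators of endothelium and endoderm, Sox7 had its only summit within 50 kb, of fold 4.94, 128 bp from an end. Sox17 had its nearest at 1.15 kb, inside the gene, with a fold of 8.14. Sox18, in a gene-rich region with 6 protein-coding neighbours within 50 kb, had 8 summits within 50 kb, the nearest at 4.11 kb (fold 3.20) and the strongest at 10.1 kb (fold 13.5). Sox15, the SoxG gene (chromosome 11, 69655037 to 69656727), lies among 11 neighbours within 50 kb. It had a summit of fold 8.88 inside the gene, 489 bp from its 5′ end, and 1 of fold 12.3 beyond its 3′ end, 691 bp away, which also lay inside Mpdu1, 721 bp from an end of that gene.

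Within the Tbx1 group, regulators of pharyngeal arches, heart and somites, Tbx10 (chromosome 19, 3992752 to 3999512) had the strongest gene-end summit of the 36 genes, at fold 15.7 and −log10 q 77.1. It lay 731 bp beyond the 3′ end and nearer to Nudt8, at 337 bp, than to Tbx10. Tbx1, the pharyngeal arch regulator, had a summit of fold 5.94 at 12 bp from its 5′ end and another of fold 5.87 at 1.20 kb. At Tbx18, which acts in the epicardium and somites, the summit of fold 4.24 at the 5′ end lay between much stronger ones. A summit of fold 11.2 was inside the gene, 5.57 kb from an end, and 1 of fold 14.0 was 9.61 kb outside. Tbx15 and Tbx20 had no gene-end summit, with their nearest at 6.18 kb (fold 8.48) and 13.6 kb (fold 7.61).

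The Tbx2 group consists of 2 linked pairs, the repressor genes Tbx2 and Tbx3 and next to them the limb genes Tbx4 (hindlimb) and Tbx5 (forelimb and heart). Between Tbx3 and Tbx5 on chromosome 5, a stretch of 112 kb without another protein-coding gene, lay 18 summits, or 16.1 per 100 kb. Among the 346 other gaps of 100 to 120 kb between neighbouring autosomal protein-coding genes the median was 2 summits, the upper quartile 4 and the highest 14. With peaks of fold at least 5 only, 14 remained between the pair, against a median of 2 and a highest of 10 in the other gaps. The gap widths were set after the values were seen, so this is a description of 1 locus and not a test. The 18 summits fell into 10 between 1.76 and 28.4 kb from Tbx3, with folds of 2.99 to 10.5, and 8 between 54.8 kb and 101 kb from it, with folds of 6.58 to 13.2. Inside Tbx5, 18.9 kb from its nearer end, lay a summit of fold 16.4, the second highest within 50 kb of any of the 36 genes. A summit of fold 10.5 lay in Tbx3, 92 bp from an end, while the summit nearest to an end of Tbx5 lay 10.4 kb outside the gene with a fold of 6.58.

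The 44.4 kb between Tbx2 and Tbx4 on chromosome 11 held 5 summits, with folds of 3.60 to 14.2, or 11.3 per 100 kb. Among 842 other gaps of 40 to 50 kb the median was 1, and 5.46% held at least 5. At Tbx2 (85832615 to 85841948) summits of fold 2.92 and 5.68 lay 191 and 236 bp outside its ends. Tbx4 had no gene-end summit; the nearest, of fold 2.73, lay 1.76 kb inside it. The strongest summit between the genes, with a fold of 14.2, was 8.99 kb from Tbx2 and 35.4 kb from Tbx4, and is thus counted for both.

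**Figure D3:**
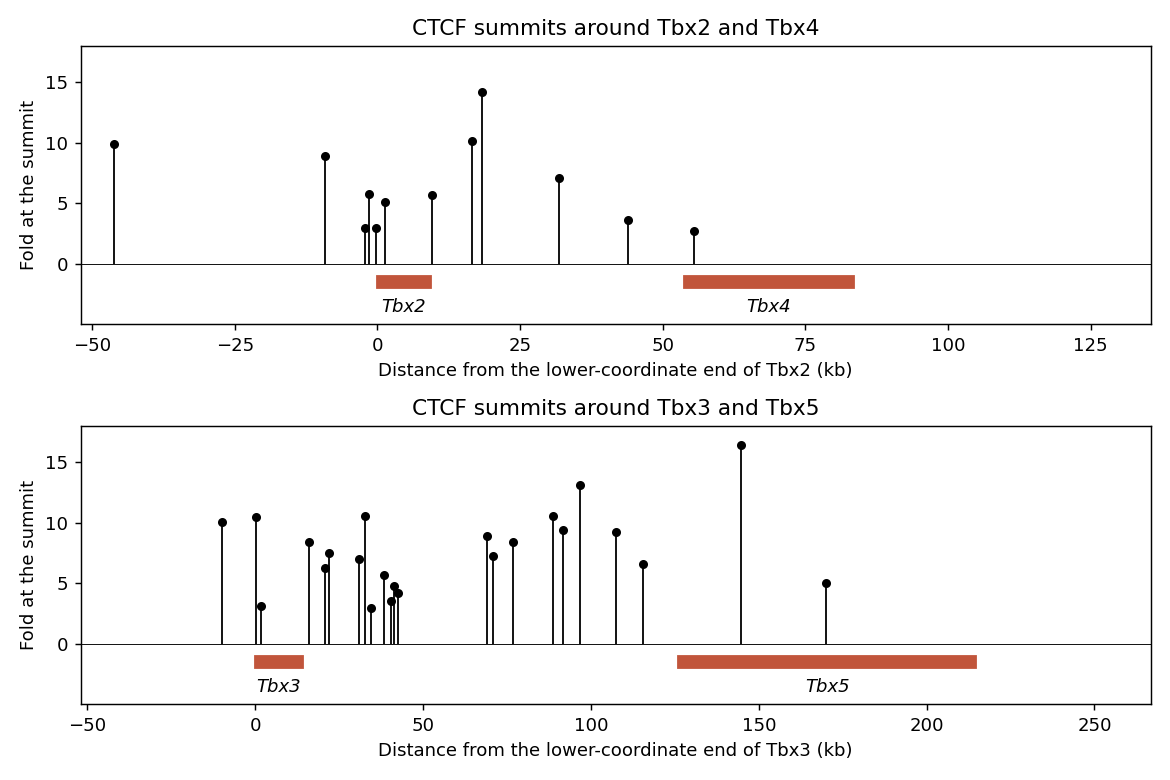
CTCF summits (vertical lines, height = deposited fold at the summit) around Tbx2 and Tbx4 (upper panel) and Tbx3 and Tbx5 (lower panel), by distance in kb from the lower-coordinate end of the first gene; bars below the axis are the annotated genes. In the lower panel 18 summits stand between the genes, and the tallest line, with a fold of 16.4, stands inside Tbx5.

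The 3 remaining Tbx genes had no gene-end summit. Tbx6, needed for paraxial mesoderm, lies among 7 neighbours and had 13 summits within 50 kb, the nearest at 1.30 kb with a fold of 8.50, inside Ypel3. Tbx19, which drives the corticotroph lineage of the pituitary, was flanked by summits at 5.04 kb (fold 10.5) and 5.14 kb (fold 6.52) outside its opposite ends. Tbx21, the T helper cell factor T-bet, had its nearest summit inside the gene, 3.90 kb from an end, at fold 10.8 and −log10 q 77.9.

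Of the Lhx genes, read here as paralogous pairs, only 1 of each of the pairs Lhx1 and Lhx5, and Lhx6 and Lhx8, had a gene-end summit. Lhx5 (chromosome 5, 120431886 to 120441457), a brain patterning gene, had a summit of fold 6.78 and −log10 q 53.7 inside the gene, 519 bp from an end. Its paralog Lhx1, needed for head and kidney formation, had its nearest at 4.38 kb with a fold of 4.32, which is 15 bp from an end of the neighbour Aatf. Lhx8, which acts in forebrain neurons and oocytes, had a weak summit of fold 3.75 at 368 bp outside its 5′ end, with summits of fold 12.5 inside the gene and 12.4 at 34.5 kb. Lhx6, the interneuron gene, had a single summit within 50 kb, of fold 3.27 at 30.6 kb, the farthest nearest summit of the set, which lies 75 bp from an end of Rbm18. Lhx2 and Lhx9 had their nearest at 6.39 and 6.64 kb (folds 3.74 and 4.20), and the pituitary genes Lhx3 and Lhx4 at 17.4 and 8.07 kb (folds 7.15 and 4.41). In Lhx9 4 summits with folds of 3.67 to 6.40 lay inside the gene, 1 of them 240 bp from a listed start that is not the annotated gene end.

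Counting from listed starts, 8 of the 27 genes with one had a summit within 1 kb (29.6%, interval 13.8 to 50.2), against 38.3% of other genes. These were Tbx1, Tbx18, Lhx9, Lhx8, Sox8, Sox11, Sox15 and Sox12, at 8 to 489 bp. The 20 genes without a gene-end summit were not all far from CTCF. Of them, 7 had a summit within 2 kb of an end, and 5 (Sox5, Tbx5, Tbx20, Lhx3 and Lhx6) had none within 10 kb. The upper quartile of the distance to the nearest summit was 5.33 kb for the 36 genes and 10.9 kb for other genes. Over all 36 genes the nearest summit was a median of 1.21 kb from an end, against 2.10 kb for other genes. By family the median was 0.440 kb for Sox (quartiles 0.280 and 1.32), 1.53 kb for Tbx (0.189 and 5.33) and 6.51 kb for Lhx genes (3.41 and 10.4). The difference between families was not tested.

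**Figure D4:**
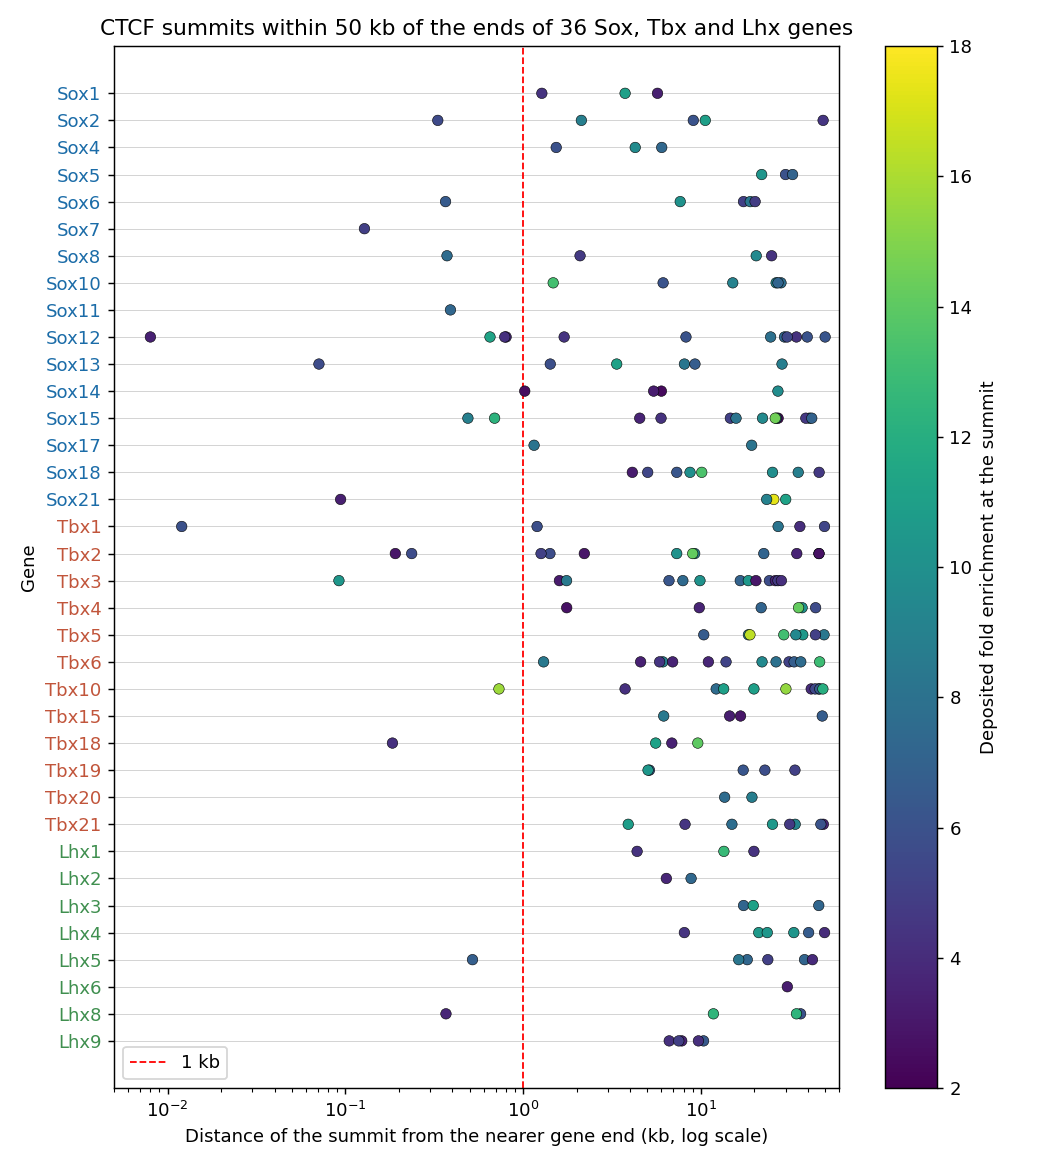
Every CTCF summit within 50 kb of an end of the 36 genes (rows), by its distance from the nearer end in kb (log scale) and coloured by deposited fold; the dashed line marks 1 kb. Points left of the line belong to 9 Sox, 5 Tbx and 2 Lhx genes, and the rows of Sox7, Sox11 and Lhx6 hold a single point.

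All 36 genes had at least 1 summit within 50 kb (100%, interval 90.3 to 100). The share of other genes was 90.5%, inside that interval. Within that distance lay 201 summits counted per gene, 195 of them distinct. The median was 5 per gene, as for other genes, with 4 for Sox, 7 for Tbx and 3.5 for Lhx genes. The highest counts were 13 at Sox15, Tbx3 and Tbx6 and the lowest 1 at Sox7, Sox11 and Lhx6. A summit of fold at least 10 was within 50 kb of 23 genes (63.9%, interval 46.2 to 79.2), namely 10 Sox, 9 Tbx and 4 Lhx genes, against 57.7% of other genes. The 3 genes with the highest fold in reach were Sox21 (17.3), Tbx5 (16.4) and Tbx10 (15.7). A summit lay inside 23 genes (63.9%, interval 46.2 to 79.2), against 54.2% of other genes. The Sox, Tbx and Lhx genes had a median of 1 protein-coding neighbour within 50 kb and a median length of 9.58 kb, where other genes had 3 neighbours and 17.6 kb. Among genes with 0 or 1 neighbour, 8 of 21 members had a gene-end summit (38.1%), against 33.2% of 5460 other genes. Members of this class had a median of 4 summits within 50 kb, and the other genes 3.

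By distance, summits were dense at the ends of the 36 genes, sparse at 2.5 to 5 kb and dense again at 5 to 10 kb. Per 100 kb of sequence there were 14.6 summits at 0 to 1 kb, 8.48 at 1 to 2.5 kb, 3.08 at 2.5 to 5 kb and 7.43 at 5 to 10 kb. Other genes had 11.9, 5.04, 4.37 and 4.09. Farther out the 36 genes had 3.62 at 10 to 25 kb and 3.41 at 25 to 50 kb, where other genes had 3.95 and 3.84. The 38 summits at 5 to 10 kb came from 21 genes, 10 Sox, 8 Tbx and 3 Lhx. The distance classes were set after the values were seen, and the class of 2.5 to 5 kb holds only 9 summits.

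**Figure D5:**
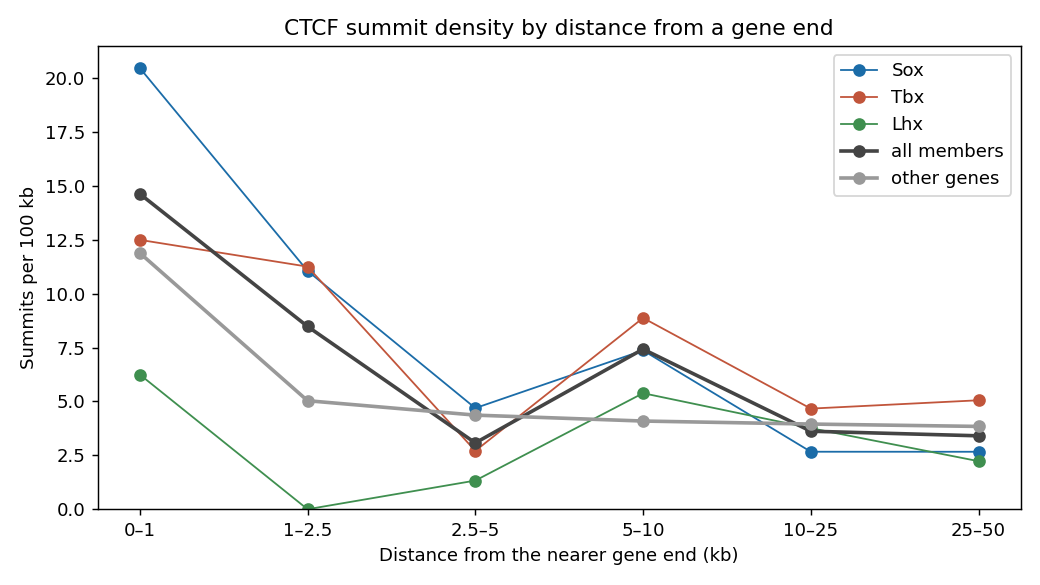
CTCF summits per 100 kb of sequence (vertical axis) in 6 classes of distance from the nearer gene end (horizontal axis, kb) for Sox, Tbx and Lhx genes, all 36 together and the other autosomal protein-coding genes. The line of all 36 genes stands at 7.43 at 5 to 10 kb, where that of the other genes stands at 4.09.

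Relatives with other names were set beside these families. Of the T-box genes Tbr1, Mga, Eomes and T, 3 had a gene-end summit, with highest folds of 6.78 at Tbr1, 5.99 at Mga and 3.15 at Eomes. T, the mesoderm gene Brachyury, had its nearest at 10.9 kb with a fold of 13.6. Together with the Tbx genes this gave 8 of 16. None of the LIM-homeodomain genes Isl1, Isl2, Lmx1a and Lmx1b had one, so that 2 of 12 genes of that class did, though at Lmx1b a summit of fold 8.55 lay at 1008 bp, just past the limit. Of the LIM partner genes Ldb1, Ldb2, Lmo1, Lmo2, Lmo3 and Lmo4 only Lmo2 had one (fold 5.44). Other developmental families ranged from 1 of 6 Dlx and 2 of 9 Pax genes to 2 of 5 Gata and 3 of 6 Irx genes, on either side of the 40.3% of all other genes.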

How the data were processed

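Whole testes of F1 mice were profiled for CTCF, with 2 immunoprecipitated and 2 input samples. The submitters' processing notes list the mm10 build and the tools MACS2 2.2.7 and BWA 0.7.12, without saying what each did. The authors deposited 1 merged narrowPeak list, whose peak names carry bio2 and merged, so whether 1 or both immunoprecipitated samples entered it is not given in the sources used here. Per peak the authors deposited a fold enrichment (ratio) at the summit, a −log10 p, a −log10 q and an integer score that was not used. The lowest deposited −log10 q was 1.31.

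Gene positions came from RefSeq (GRCm38.p6) protein-coding genes of the 19 autosomes from 3 Mb on. A gene-end summit lies within 1 kb of either annotated end; a second window was 50 kb. Strand and starts came from the promoter table. Fold was compared only within this list. No hypothesis test was run, since no value per sample was analysed and genes are not replicates. Shares have exact Clopper-Pearson 95% intervals (scipy 1.17.1). The counting returned all 200 planted genes of simulated data as planted. Summits were planted only outside the lower-coordinate end, and only the 1 kb count was checked, by the same distance rule. Members, lists and subgroups were chosen with earlier results of these data known. Every member is named, each with its gene-end or nearest summit. Alternatives were windows of 500 bp and 2.5 kb, 25 and 100 kb, stricter peaks (a fold of 5 or more, or a −log10 q no lower than its median of 29.5), overlap of the peak by 1 bp in place of the summit, distances from the gene body and other sets of comparison genes.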

Additional observations from a re-analysis of the deposited data

How the results depend on the processing

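Of 50 alternatives, 32 stayed within the 95% interval of the value reported (for counts between genes, within 1.5 times). The other 18 moved out of it, most by construction of a wider, narrower or stricter selection. Intervals of the small families are wide, so staying within them is a weak criterion. An Lhx share of 12.5% with a 500 bp window, in place of 25%, stayed within its interval of 3.19 to 65.1. With a 2.5 kb window 63.9% of the 36 genes and 87.5% of the Sox genes had a gene-end summit, and 22.2% and 25% when peaks below the median −log10 q were dropped. The share over all 36 genes stayed above that of other genes under each of the 5 alternatives (52.5% and 17.6% for those 2 settings). That of the Lhx genes stayed below it. In every setting the value of other genes lay inside the intervals of the 36 genes and of the Lhx genes. These settings reuse the same genes and peaks. Counted from listed starts, the share of the members was the lower one (29.6% against 38.3%, and 29.6% against 33.2% within 500 bp). The median number of summits for all 36 genes was 3 within 25 kb, 8 within 100 kb, 3.5 with fold at least 5 and 3 without peaks below the median −log10 q, where other genes had 3, 9, 4 and 2. For Sox genes it was 8.5 within 100 kb and 2 without peaks below the median −log10 q. For Tbx genes it was 3.5 within 25 kb and 14.5 within 100 kb, and for Lhx genes 6.5 within 100 kb. Other genes had 3 within 25 kb, 9 within 100 kb and 2 without those peaks. Within 100 kb, summits between Tbx2 and Tbx4 or between Tbx3 and Tbx5 can count for both genes of a pair. The median highest gene-end value of 6.25 became 28.7 when −log10 q took the place of fold, which is another unit. The median distance to the nearest summit of 1.21 kb became 0 when measured to the gene body and 4.46 kb with fold at least 5. For other genes it was 0 and 5.14 kb in these 2 settings. The share of other genes with a gene-end summit was 43.2% without olfactory and vomeronasal receptor genes, and 37.8% among the 5082 genes whose length and neighbour number lay between the quartiles of the 36. The fold at least 5 setting for gaps between genes was chosen after seeing the data. No paired analysis was possible because the list carries no value per sample, and no replicate could be left out. Since the read depth is not known, weak binding below the authors' threshold cannot be assessed.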

Other observations

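The members of these families on the X chromosome and the 2 Sox genes left out of the comparison were examined separately. Sox3 and Tbx22, both on X, lacked any summit in the 50 kb windows, as did 30.3% of the 961 other protein-coding genes on X. The nearest summit to Sox3, a SoxB gene like Sox2, lay 153 kb away with a fold of 6.61, and that to Tbx22, a palate gene, 79.1 kb away with a fold of 4.18. Sox9, the Sertoli cell and cartilage factor, had its nearest summit at 2.18 kb (fold 7.62), the only one within 50 kb. Sox30, which acts in spermatids, had its nearest at 1.09 kb with a fold of 10.3 and 10 within 50 kb.

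The stretch between Tbx3 and Tbx5 held more summits than any of the 346 other gaps of like width. That width range was set after the values were seen, so the rank is a description and not a test. The reads there were not analysed here.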
